A study of Mus musculus with 39 samples.

Results

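The regions described here are the RBPJ peaks of radial glial cells (RGCs) and of intermediate progenitor cells (IPCs) of the embryonic mouse cortex, mapped by Targeted DamID (TaDa). They were taken from the deposited peak list of each cell type on the 21 nuclear chromosomes, 14097 peaks for RGCs and 5497 for IPCs, or 19594 of the 25453 nuclear peaks in the 4 lists of the series. An RGC peak that shared at least 1 bp with an IPC peak was called kept, one that shared none was called lost in IPCs, and an IPC peak with no RGC partner was called gained. The question was which sites of RBPJ are shared by RGCs and by the IPCs that arise from them, and which genes they lie near. Wild-type MF1 embryos were electroporated in utero at E13.5 and dissected at E14.5, 24 h later, with no mutation or drug in any group. In the RGC group (3 samples) Dam methylase fused to human RBPJ1 was driven by a fragment of the Hes5 promoter, and in the IPC group (3 samples) the same fusion was driven by Tα1, a fragment of the Tuba1a promoter. Dam alone under the same promoters served as control, with 5 samples for RGCs, of which the labels list 4 for the RBPJ track, and 4 samples for IPCs, so the RGC and IPC lists share no control sample. In both groups RBPJ was supplied from a plasmid, a fluorescent plasmid marked the dissected region, cells were not sorted, and the promoter alone defined the cell type. The lists hold positions of binding and no expression, so the labelled cell types could not be checked against markers.

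RBPJ is the DNA-binding protein of the Notch pathway. When a ligand of the Delta or Jagged type on a neighbouring cell binds a Notch receptor, the intracellular part of the receptor is cut free, enters the nucleus and joins RBPJ and Mastermind to switch genes on. Without it, RBPJ can hold the same genes down together with corepressors. In the cortex, active Notch keeps RGCs dividing through the Hes and Hey repressors, and falling Notch activity accompanies the step to IPCs, which express Eomes and Neurog2 and divide to give neurons. In TaDa the fusion protein methylates GATC sequences close to where it binds, and methylated fragments between GATC sites are amplified and sequenced.

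Few RGC peaks met a called IPC peak. Of the 14097 RGC peaks, 1428 were kept, 10.1% (Wilson 95% interval 9.64 to 10.6), and 12669 were lost. Of the 5497 IPC peaks, 1461 met an RGC peak and 4036 were gained, 73.4% (72.2 to 74.6). These are pooled calls with no height, fold or depth, and no value per sample. Intervals therefore cover counting error over peaks, no replicate error could be given and no difference was tested. A lost or gained peak is one that was not called in the other list, which does not show that RBPJ was absent there. The IPC list is the shorter one, which limits how many RGC peaks can be kept. The paper clustered sites by binding intensity, a different measure. It reports that most sites shared by Notch and RBPJ in RGCs were also bound in IPCs. Most kept RGC peaks met 1 IPC peak (1391), while 36 met 2 and 1 met 3. The IPC peak was often the smaller partner: 828 of the 1461, 56.7%, lay wholly within an RGC peak, while 112 kept RGC peaks lay wholly within an IPC peak. The shared stretch had a median length of 1236 bp. Lost peaks were seldom near misses, since 88 of the 12669 had an IPC peak within 1 kb and the median distance to the nearest one was 114.9 kb. For gained peaks 73 of 4036 had an RGC peak within 1 kb, and the median distance was 44.5 kb.

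Width differed between kept and lost RGC peaks, with overlap, and little between kept and gained IPC peaks. Lower and upper quartiles were 1920.5 and 4225.75 bp for kept RGC peaks and 1256 and 2945 bp for lost ones. Kept RGC peaks had a median width of 2881.5 bp and lost peaks of 1985 bp, whereas gained peaks had a median of 1388 bp and kept IPC peaks of 1448 bp. The share of RGC peaks kept rose with width, from 3.72% (3.09 to 4.49) in the narrowest of 5 equal groups of the list to 20.3% (18.9 to 21.8) in the widest. The gained share of IPC peaks had no such slope, at 70.3% in the narrowest group, between 76.0% and 77.2% in the 3 middle groups and 66.7% in the widest. The part of width in the kept share was not tested. By base, 6.17% of the sequence under RGC peaks was shared with IPC peaks, below the share counted by peak. Across chromosomes with more than 1 peak the kept share ran from 5.58% on chromosome 17 to 12.5% on chromosome 19.

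**Figure D1:**
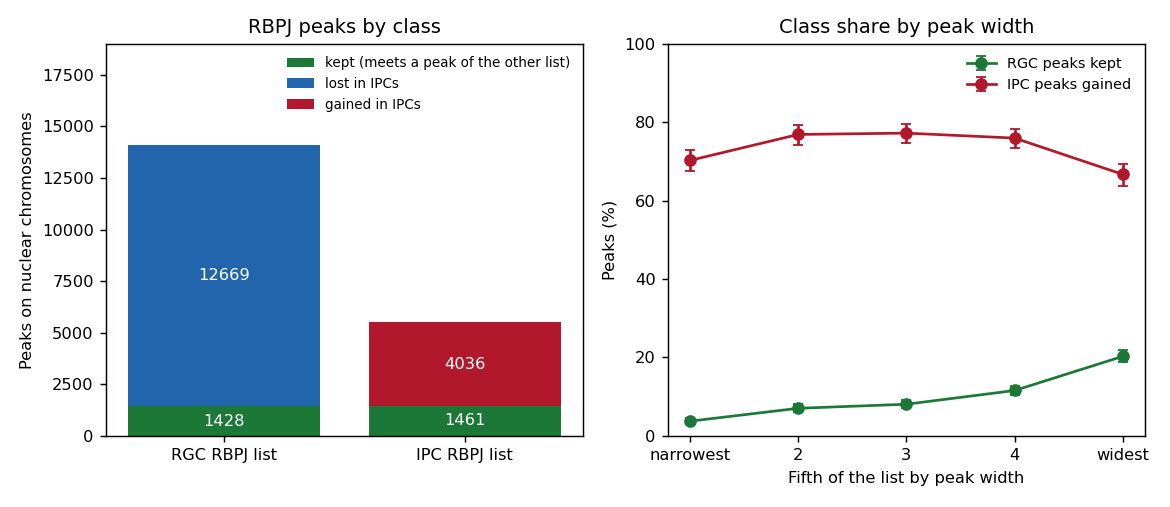
Left, RBPJ peaks on nuclear chromosomes in the RGC and IPC lists, stacked by class, with the count in each block: 1428 kept and 12669 lost RGC peaks, 1461 kept and 4036 gained IPC peaks. Right, share of RGC peaks kept and of IPC peaks gained (%) in 5 equal groups of each list by width, with Wilson 95% intervals; the kept share goes from 3.72% to 20.3% and the gained share stays between 66.7% and 77.2%.

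Short stretches of the mm10 reference show what the classes look like at sequence level. Each stretch holds 120 bases of the plus strand, lies outside every annotated exon and holds at least 1 match to TTCCCAC, the long form of the RBPJ word TTCCCA. Capitals mark TTCCCA or, where the word lies on the other strand, TGGGAA. The first 3 are from the sequence shared by an RGC and an IPC peak at canonical Notch targets, namely Hes1 (chr16:30065203-30065322), Hes5 (chr4:154952737-154952856) and Nrarp (chr2:25170691-25170810).
Hes1, kept: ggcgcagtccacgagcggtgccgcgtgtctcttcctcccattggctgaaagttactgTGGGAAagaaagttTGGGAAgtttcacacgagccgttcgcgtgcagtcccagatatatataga
Hes5, kept: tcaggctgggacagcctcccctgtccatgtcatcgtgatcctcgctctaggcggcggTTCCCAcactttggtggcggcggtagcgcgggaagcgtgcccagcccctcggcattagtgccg
Nrarp, kept: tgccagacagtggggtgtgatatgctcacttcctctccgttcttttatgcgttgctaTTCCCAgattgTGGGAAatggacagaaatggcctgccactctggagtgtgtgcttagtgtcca
The Hes1 stretch lies within the span of the gene and holds 2 words in the same direction, of which 1 is the 7-base form. The Nrarp stretch, from the second kept site upstream of that gene, holds 2 words in opposite directions, and the Hes5 stretch, from the kept site farther upstream, holds 1 word and 1 GATC site.

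The next stretches are from lost peaks near Auts2 (chr5:131600113-131600232) and Pde4b (chr4:102568834-102568953) and from gained peaks near Nav2 (chr7:49053666-49053785), Dusp4 (chr8:34814760-34814879) and Ldhal6b (chr17:5259173-5259292), chosen because Auts2 and Nav2 had the most lost and the most gained peaks, and the other genes were among those with the most peaks in 1 list and none in the other. The last stretch lies in an intron of Arid1b and was assigned to Ldhal6b by its start site.
Auts2, lost: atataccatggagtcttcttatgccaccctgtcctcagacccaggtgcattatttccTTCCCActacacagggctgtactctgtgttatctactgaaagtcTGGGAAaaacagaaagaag
Pde4b, lost: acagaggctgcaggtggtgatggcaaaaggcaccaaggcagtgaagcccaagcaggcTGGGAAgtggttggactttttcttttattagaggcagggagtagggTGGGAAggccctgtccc
Nav2, gained: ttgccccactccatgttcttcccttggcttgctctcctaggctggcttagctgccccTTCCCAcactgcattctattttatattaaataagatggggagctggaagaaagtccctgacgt
Dusp4, gained: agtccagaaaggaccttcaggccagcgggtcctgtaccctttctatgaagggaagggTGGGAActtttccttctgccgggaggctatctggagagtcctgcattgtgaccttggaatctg
Ldhal6b, gained: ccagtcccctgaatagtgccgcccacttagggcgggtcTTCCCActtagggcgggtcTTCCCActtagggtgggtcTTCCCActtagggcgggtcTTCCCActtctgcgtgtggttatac
The lost stretches hold 2 words each and the Nav2 and Dusp4 stretches 1 each. The Ldhal6b stretch holds 4 copies in a short tandem repeat. The peaks around the Nav2 and Ldhal6b stretches contain no GATC site at all, whereas the lost peak at Auts2 contains 12 and the one at Pde4b 11. The word is common: TTCCCA was found in 25.6% of 32851 RefSeq promoters of 300 bp (GRCm38.p6) and in 74.7% of 1500-bp tiles of the mm10 chromosomes, and TTCCCAC in 6.38% and 23.6% of them, so a match alone marks no binding site.

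Counted over whole classes, on both strands, the word was densest where the 2 lists met. TTCCCA occurred 1.48 times per kb (Poisson 95% interval 1.43 to 1.53) in the sequence shared by RGC and IPC peaks, 1.27 per kb (1.24 to 1.30) over whole kept RGC peaks, 1.19 (1.18 to 1.20) in lost peaks and 1.17 (1.15 to 1.20) in gained peaks, against 0.934 over mm10. TTCCCAC followed the same order at the top, with 0.402 per kb (0.375 to 0.430) in the shared sequence, 0.277 in lost peaks, 0.278 in gained peaks and 0.185 over mm10. Base composition differed as well. GC content was 48.1% in the shared sequence, 45.8% in lost and 47.3% in gained peaks against 41.7% over mm10. It was thus higher in gained than in lost peaks, unlike TTCCCA density. CG dinucleotides were found 23.2, 16.2, 16.0 and 8.26 times per kb in the same order. The part of base composition in the word counts was not tested. Along the peaks, the 200 bp just after the midpoint held 1.59 words per kb (1.45 to 1.74) in kept IPC peaks and 1.27 (1.23 to 1.31) in lost peaks. Gained peaks had 1.13 (1.06 to 1.21) there and at most 1.20 (1.13 to 1.28) in the next 200 bp, against 1.02 (0.949 to 1.09) at the outer end of the window, where kept IPC peaks had 1.01 (0.898 to 1.13). The head-to-head pair of words 15 to 17 bases apart is an arrangement on which 2 Notch complexes can dimerise. It was counted only where both words matched exactly, and such copies were rare. Pairs with an inexact word were not counted. An exact copy was held by 4 of 1428 kept and 35 of 12669 lost RGC peaks, by 5 of 4036 gained peaks and by 0.0863% of 1500-bp tiles of mm10, which are narrower than most RGC peaks. CAGATG, an E-box of the kind that proneural bHLH factors such as Neurog2 bind, reached 0.934 per kb (0.910 to 0.959) in gained peaks, with 0.806 (0.796 to 0.816) in lost and 0.791 (0.766 to 0.817) in kept RGC peaks and 0.835 over mm10. Another E-box, CAGCTG, lay above mm10 (0.390) in every class, at 0.614 in gained, 0.514 in lost and 0.5585 in kept RGC peaks. The homeobox word TAATTA had 0.340, 0.357 and 0.376 in the same order and 0.433 in the shared sequence, against 0.409 over mm10.

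Gained peaks differed from the others in a property of the method itself. No GATC site lay within 1791 of the 4036 gained peaks, 44.4% (42.8 to 45.9). The same held for 7 of 1428 kept RGC peaks (0.490%), 179 of 12669 lost peaks (1.41%) and 57 of 1461 kept IPC peaks (3.901%), and 3.12% of 1500-bp tiles of mm10 had no site. The gap was as wide among peaks of one width, since gained peaks from 1500 to under 2000 bp lacked a site in 46.7% (43.5 to 49.9) and lost peaks of that width in 0 of 2162 (interval up to 0.177%). Whole lists differed in the same way: 33.6% of IPC RBPJ peaks had no GATC, 5.61% (4.71 to 6.66) of IPC Notch peaks, which were called with Dam-only samples of the same group, and 1.32% of RGC RBPJ peaks. A peak without GATC sits inside 1 restriction fragment, and for these gained peaks that fragment had a median length of 2146 bp, with the peak covering a median of 68.7% of it. GATC density at the midpoint was 1.04 per kb in gained and 3.58 in lost peaks against 2.52 over mm10. Within gained peaks, the 1791 without GATC held 1.10 TTCCCA words per kb (1.06 to 1.14) and lay on a start site in 8.21%, while the 2245 with GATC held 1.23 (1.19 to 1.27) and lay on one in 15.3%. When peaks without GATC were left out of both lists the gained share was 61.7%. Why they differ was not tested, and the counts of gained peaks below include both kinds.

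**Figure D2:**
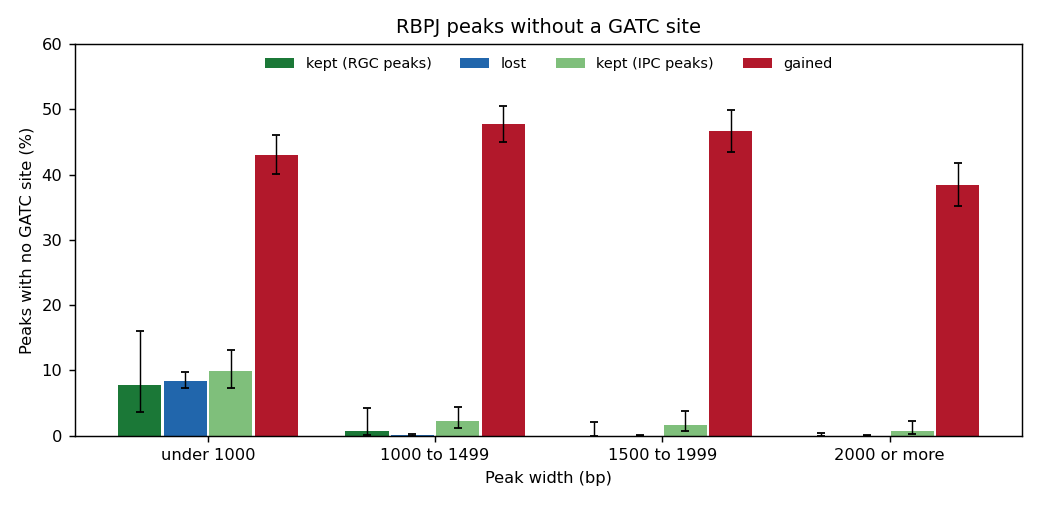
Share of RBPJ peaks with no GATC site (%) by peak width in bp for kept, lost and gained peaks, with Wilson 95% intervals. Gained peaks sit at 38.4% to 47.7% in every width class, and all other classes at 9.903% or less.

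**Figure D3:**
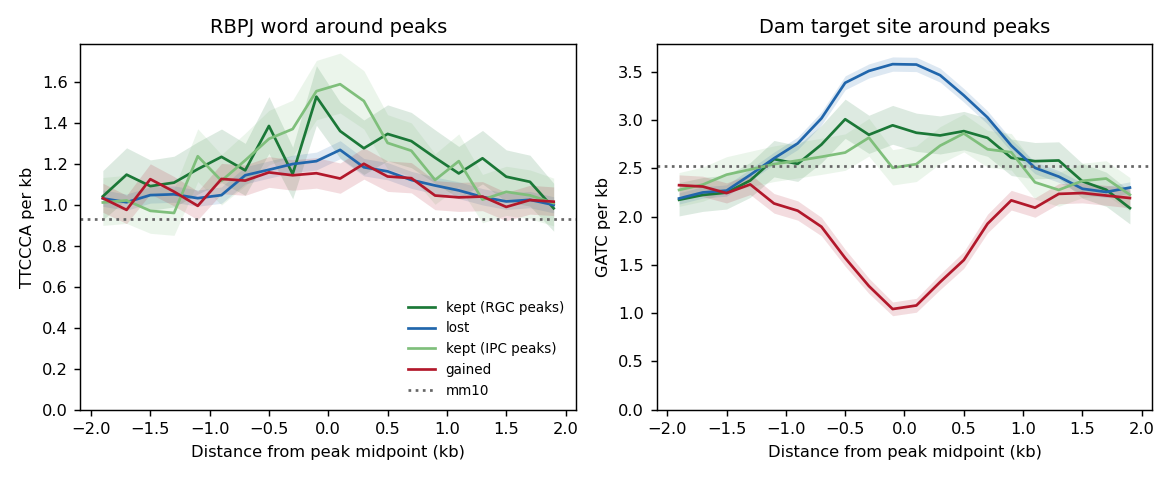
TTCCCA words (left) and GATC sites (right) per kb in 200-bp steps up to 2 kb either side of the peak midpoint, with Poisson 95% intervals shaded and the mm10 mean dotted. The word rises from 1.01 to 1.59 per kb between the right edge and the midpoint in kept IPC peaks and from 1.02 to at most 1.20 in gained ones, and GATC sites rise in lost peaks (3.58) and dip in gained ones (1.04).

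Kept peaks lay closer to genes. Of the kept RGC peaks 394, or 27.6% (25.3 to 30.0), covered the start site of a protein-coding transcript, as did 16.4% (15.8 to 17.1) of lost and 12.1% (11.2 to 13.2) of gained peaks. Kept RGC peaks are also the widest class, and the midpoint lay within 1 kb of a start site in 21.8%, 15.5% and 14.52% in the same order. The median distance to the nearest start site was 15.9 kb for kept, 22.5 kb for lost and 20.9 kb for gained peaks. By midpoint, introns held 49.0% of kept, 45.9% of lost and 49.5% of gained peaks, and intergenic sequence 34.8%, 40.4% and 36.9%. A kept RGC peak did not always leave the start site covered in IPCs: of 391 genes with a kept RGC peak on a start site, 268 also had a kept IPC peak on one.

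Each peak was assigned to the closest start site of a protein-coding gene, counting the start of every annotated transcript, so that a start site may lie inside a gene. RGC peaks reached 6780 of 21938 genes, 30.9%, and IPC peaks 3542, 16.1%. Of the genes with RGC peaks, 1112 kept at least 1, which is 16.4%, and 330 kept every one. Peaks of both lists were assigned to 2428 genes, of which 1332 kept none. The other 4352 had no IPC peak assigned, and a few of these kept a peak whose IPC partner was assigned to another gene. Of the genes with IPC peaks, 1114 had no RGC peak, 31.5%, and 984 of these had a single one. The share of genes that kept at least 1 rose with their number of RGC peaks. It was 7.71% with 1 peak, 21.4% with 2 to 4, 52.8% with 5 to 9 and 76.2% with 10 or more. Such a rise follows from counting, since more peaks give more occasions to keep 1. No expected share was computed. The share of peaks kept in these genes went from 7.71% to 14.4%.

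The Hes and Hey repressors and their companions, the immediate outputs of Notch, kept 11 of 28 RGC peaks, 39.3% (23.6 to 57.6), and had 4 gained peaks. Their RGC peaks were wide, with a median of 2950.5 bp against 2059 bp over all peaks. All 11 kept peaks were among the 20 wider than the median of the list, in which 55.0% were kept, against 14.51% of all peaks that wide. Among the 12 genes, 8 had an RGC peak, 6 kept one and Hey2 had an IPC peak only. Like all lists used here, it was drawn up with earlier results of these data known, and its share is a description.

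Hes1, the main repressor of neuronal differentiation in RGCs (ENSMUSG00000022528, chromosome 16 from 30064384 to 30067796), had 12 RGC peaks and 2 IPC peaks, both of them on kept sites. The first is the RGC peak over the start site, from 30062529 to 30070043, inside which the IPC peak ran from 30063914 to 30067021, narrower at 3108 bp against 7515 bp and with 7 TTCCCA words. The other lies 180.4 kb upstream, with 8 words in each cell type. All 10 lost peaks lay upstream, from 2.94 to 218.9 kb away, and the widest of them had 8678 bp, 13 words and 29 GATC sites.

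Hey1, a related repressor (ENSMUSG00000040289, chromosome 3 from 8663359 to 8667256), kept all 3 of its RGC peaks, on a start site and 17.54 and 49.46 kb upstream, and gained a peak of 837 bp with no GATC site 35.02 kb downstream. Hes7, the oscillator of somite formation, had a single RGC peak of 6779 bp over its start site, and the IPC peak of 5685 bp there held 13 TTCCCA words. Hes5 (ENSMUSG00000048001, chromosome 4 from 154960923 to 154962371), the other main Hes gene of RGCs, kept both of its RGC peaks. At the start site the RGC peak was 4063 bp wide, while the IPC peak within it, of 424 bp, ended 3.21 kb short of the start site. At the other site, 6.64 kb upstream, the IPC peak had 1221 bp, and a further IPC peak 14.2 kb upstream was gained. RGC plasmids carry a fragment of the Hes5 promoter, so reads of plasmid and genome cannot be told apart there.

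Nrarp, which limits Notch signalling by binding to its nuclear complex (ENSMUSG00000078202, chromosome 2 from 25180758 to 25183339), kept 2 of 3 RGC peaks. The RGC peak over the gene was 10783 bp wide with 18 words, and the IPC peak inside it of 2146 bp lay 1.71 kb upstream of the start with 5 words. The second kept site, 8.69 kb upstream, had 9 words in the RGC peak and 8 in the IPC peak. Nepro, a nuclear protein that holds back neurogenesis, kept 1 of 3, a site of 8766 bp lying 53.7 kb upstream. Heyl and Helt lost both of their 2 RGC peaks each, those of Heyl on and 1.46 kb from its start site. Hey2 had no RGC peak and a gained peak of 2545 bp on its start site with 5 words and 9 GATC sites.

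Receptors and ligands of the pathway kept 3 of 21 RGC peaks, 14.3% (4.98 to 34.6), and 11 of their 14 IPC peaks were gained, 78.6% (52.4 to 92.4). Over all peaks these shares were 10.1% and 73.4%, within both intervals. Their RGC peaks had a median width of 3810 bp, and of those wider than the median of the list 3 of 15 were kept. Notch1, the main receptor of RGCs (ENSMUSG00000026923, chromosome 2 from 26457903 to 26516663), carried the widest lost peak of the list, 14115 bp from 26495635 to 26509749 inside the gene, over the start of a shorter transcript, with 24 TTCCCA words and 34 GATC sites. All 4 of its RGC peaks were lost, among them 1 of 4809 bp with 8 words and 1 of 4602 bp with 7. None of its 3 IPC peaks met them, though 1 ended at 26475635, just short of the lost peak of 4602 bp that began at 26475748. That one and its neighbour held no GATC site and 0 and 2 words, and the third, 17.1 kb upstream of the start, with 7 words. Notch plasmids of the study carry Notch1 sequence and the RBPJ plasmids do not.

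Notch2 kept 1 of 4 RGC peaks, an intronic site of 7814 bp with 13 words 18.4 kb from the nearest start, and gained 2. Notch3 had no RGC peak and 2 gained peaks, 1 of which held no GATC. Notch4 lost a peak of 3810 bp at the far end of the gene, over the start of a short transcript, and gained 1 without GATC 7.25 kb away. Among ligands, Jag1 (ENSMUSG00000027276) kept both of its RGC peaks, of 4188 bp on a start site and 3447 bp in an intron, and gained a peak of 3083 bp with 6 words and no GATC 95.6 kb upstream. Dll1, the ligand that newborn neurons and IPCs present to RGCs, lost both peaks, of 3051 bp on its start site and 3460 bp upstream. Dll4 lost its single peak and Dlk1, a non-canonical ligand, all 5. Dll3, a family member that inhibits Notch in its own cell, had only a gained peak, of 2530 bp on the start site with 5 words and 5 GATC sites.

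Modulators and cofactors of the pathway kept 13 of 74 RGC peaks, 17.6% (10.6 to 27.8), in 8 of the 19 genes that had any, against 10.1% over all RGC peaks. Of their wide peaks 11 of 48 were kept, 22.9%, against 14.51%. Rbpj itself (ENSMUSG00000039191, chromosome 5 from 53466152 to 53657362) kept 2 of 3, an RGC peak of 4643 bp on a start site and an intronic one of 6164 bp that met 2 IPC peaks. The fused RBPJ is human. Lfng, the Fringe enzyme that modifies Notch receptors, kept its single peak, 7205 bp wide in RGCs and 3934 bp in IPCs, on its start site with 12 and 6 words. Among the Groucho corepressors through which Hes proteins act, Tle3 kept 2 of 19, Tle4 2 of 10 and Tle1 2 of 7, and the coactivator Maml3 2 of 8.

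**Figure D4:**
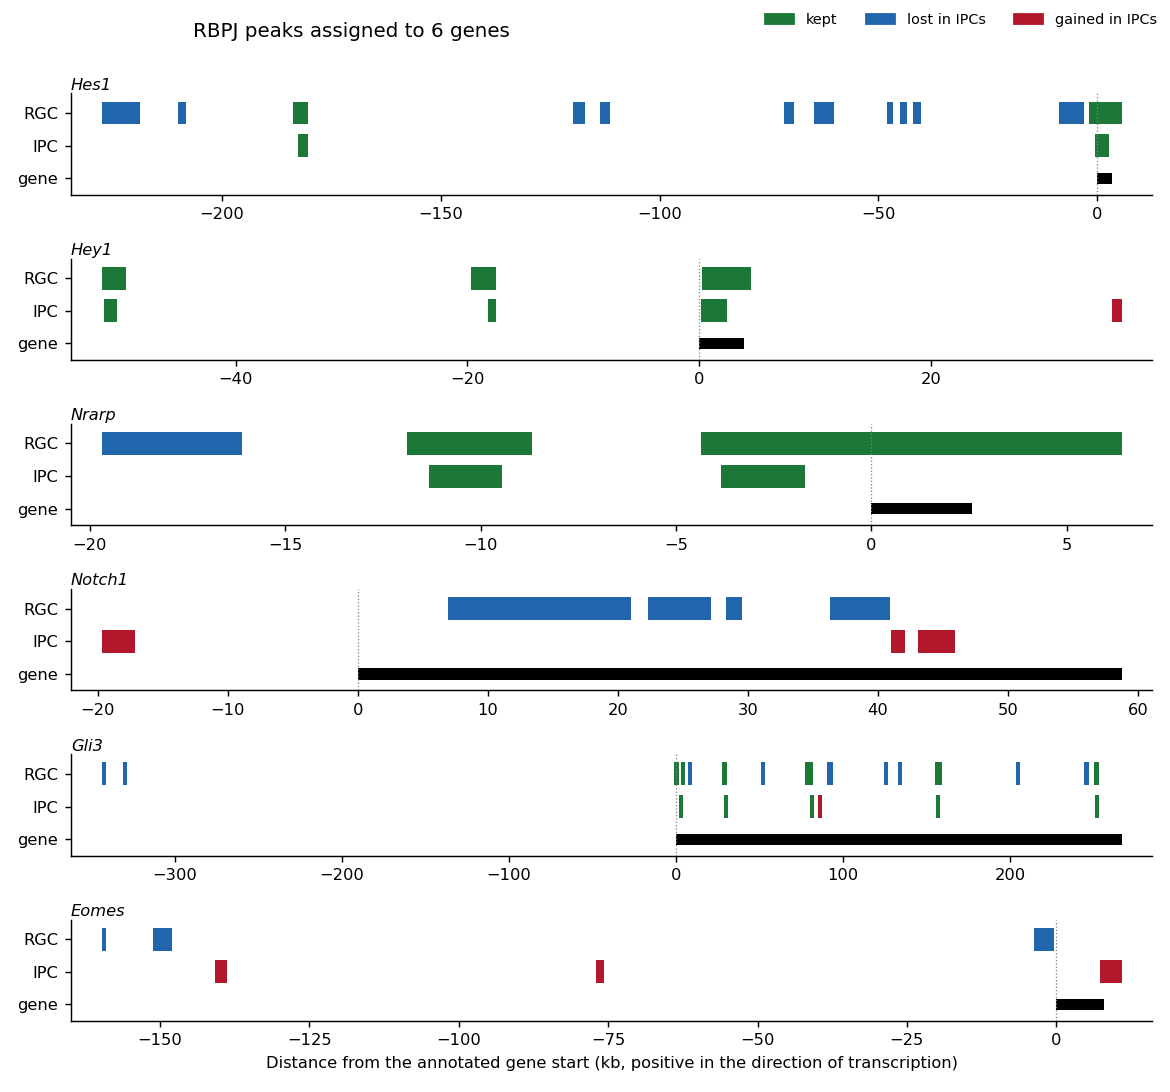
RBPJ peaks given to 6 genes, drawn to scale against the distance from the annotated gene start in kb (a separate scale for each gene, positive in the direction of transcription), with RGC peaks above, IPC peaks in the middle and the gene body in black. Both IPC peaks of Hes1 fall on 2 of its 12 RGC peaks and Hey1 keeps 3 of 3, whereas none of the RGC and IPC peaks of Notch1 (4 and 3) or Eomes (3 and 3) meet.

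Transcription factors of RGCs kept 49 of 239 RGC peaks, 20.5% (15.9 to 26.1), and 21 of the 30 genes with an RGC peak kept one. Among their peaks wider than the median of the list 25.8% were kept, against 14.51% of all peaks that wide, and among narrower ones 8 of 80 against 5.75%. Nfib, a nuclear factor I gene that promotes the later output of RGCs, kept 6 of 17 RGC peaks and gained 8 of its 16 IPC peaks, 1 of them 6704 bp wide. Pou3f3, a POU factor of upper-layer progenitors, kept 6 of 21, the farthest 883.1 kb upstream. Sox2, which maintains neural stem cells, kept 2 of 20, a site of 6460 bp lying 5.31 kb from its start and a site 205 kb upstream, and lost the peak of 4530 bp on its start. Pax6, the selector of cortical RGCs, kept a site of 13175 bp on a start site with 17 words, where the IPC peak had 3994 bp and 8 words. It lost 5 others and gained a peak of 4624 bp with 7 words. Prdm16, a chromatin regulator of RGCs, held the widest kept peak, 13232 bp from 154547105 to 154560336 on chromosome 4, with 18 words and 45 GATC sites, and the IPC peak inside it had 2602 bp and 2 words. Meis2 kept 3 of 18 and lost both of its start-site peaks, of 10286 and 8189 bp.

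Genes that mark RGCs without acting on transcription kept 10 of 53, 18.9% (10.6 to 31.4), against 10.1% over all RGC peaks. Their RGC peaks had a median width of 2777 bp, against 2059 bp over all. They kept 8 of 34 peaks wider than the median of the list, 23.5%, and 2 of 19 narrower ones, 10.5%. Over all RGC peaks these shares were 14.51% and 5.75%. Fabp7, the lipid-binding protein of RGCs, had 1 RGC peak of 2773 bp and 1 IPC peak of 2727 bp on its start site, with 5 words in each. Slc1a3, the glutamate transporter GLAST, kept 3 of 8 and lost the peak on its start site. Nes, the intermediate filament nestin, kept the peak in its intron, 3423 bp wide with 7 words, and lost the one on its start site, while Vim lost both and the cadherin Cdh2 all 8.

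Genes of IPCs and of the neurogenic programme kept 11 of 37, 29.7% (17.49 to 45.78), and gained 14 of 25 IPC peaks, 56.0% (37.1 to 73.3), against 10.1% and 73.4% over all peaks. They kept 7 of 22 wide peaks, 31.8%, and 4 of 15 narrow ones, 26.7%, against 14.51% and 5.75%. Much of this list is 1 gene, Tcf4, which held 15 of the 37 RGC peaks and 4 of the 11 kept ones. Of the proneural factors, Neurog1 kept both RGC peaks and Neurog2 kept 2 of 3, of 5618 bp over its start site and 7095 bp some 6.42 kb downstream. Inside these, the IPC peaks of Neurog2 had 1279 and 732 bp with 4 and 3 words, and another IPC peak 4.75 kb upstream was gained. Myt1, a zinc finger factor of differentiating neurons, kept its peak on the start site. Eomes, the defining factor of IPCs (ENSMUSG00000032446, chromosome 9 from 118478212 to 118486132), had 3 RGC and 3 IPC peaks and none in common. Its lost peak nearest the gene, of 3344 bp, lay 0.443 kb upstream, and its nearest gained peak, of 3572 bp, 6.73 kb from the start. Gadd45g lost all 4, the one on its start site included, and Btg2 lost 1 on its start site and gained 1. Neurod1 and Neurod6, factors of young neurons, had gained peaks of 2540 and 2461 bp on their start sites with 5 and 12 GATC sites. Neurod6 also kept 1 of its 2 RGC peaks. Of the other neuronal markers, Tbr1 and Dcx each had 1 lost and 0 gained peaks, and Tubb3 had 1 gained peak only. Insm1 had no RBPJ peak in either list.

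Projection-neuron identity genes kept 17 of 105, 16.2% (10.4 to 24.4), against 10.1% over all RGC peaks. Zeb2, a regulator of neuronal migration and fate, kept 5 of 11, among them a peak of 10471 bp on a start site with 19 words. Foxp1 lost all 17 and had 6 gained peaks, and Bcl11b, the CTIP2 factor of corticospinal neurons, lost all 4. Genes of synapses and neuronal structure kept 8 of 85, 9.41% (4.85 to 17.49), an interval that holds the 10.1% of all RGC peaks, at a smaller median width of 1841 bp. Nlgn1, a synaptic adhesion gene, lost all 10.

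Other pathways lay both above and below the 10.1% of all RGC peaks that were kept. Median widths of their RGC peaks ran from 1547 bp for olfactory and vomeronasal receptor genes to 2889 bp for Wnt genes. Among peaks wider than the median of the list, hedgehog genes kept 11 of 36, Wnt genes 12 of 48 and Fgf genes 1 of 21. Over all peaks that wide the share was 14.51%. Hedgehog genes kept 16 of 62, 25.8% (16.6 to 37.9), of which 6 of 15 were near Gli3, the transcription factor that represses hedgehog targets in the dorsal forebrain (ENSMUSG00000021318). The IPC peaks of Gli3 lay within the gene from 0.769 to 250.2 kb from its start, and a single IPC peak of 2815 bp met 2 RGC peaks. Gas1, a hedgehog co-receptor, lost all 12. Wnt genes kept 15 of 75 (interval 12.5% to 30.4%): the ligand Wnt7b kept 2 of 3 and the receptor Fzd2 both, while the receptor Fzd8 lost all 9 and the repressor Tcf7l1 all 8. Fgf genes kept 1 of 30, 3.33% (0.591 to 16.7), an RGC peak on the start site of the ligand Fgf15 whose IPC partner lay 1.05 kb upstream, and Fgfr2 lost all 10. Bmp and Tgf-beta genes kept 5 of 55, 9.09%, cell cycle genes 5 of 43, 11.6%, and chromatin genes 7 of 44, 15.9%. The intervals of these lists hold the share of all RGC peaks. Axon guidance genes kept 31 of 214, 14.49% (10.4 to 19.8), cadherins 12 of 141, 8.51%, and potassium channels 11 of 106, 10.4%. Cadherins and potassium channels also have intervals that hold the share of all RGC peaks. Olfactory and vomeronasal receptor genes, which are silent in cortex, kept 0 of 75 RGC peaks (interval up to 4.87%). Of these 75 peaks, 49 were no wider than the median of the list, where 5.75% of all RGC peaks were kept. These genes had 13 IPC peaks, all of them gained. The share of IPC peaks that were gained was 26.7% for the Hes and Hey genes and their companions. It was 40.7% for RGC factors, 37.5% for hedgehog genes, 75.5% for cadherins and 78.4% for potassium channels, against 73.4% over all IPC peaks.

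**Figure D5:**
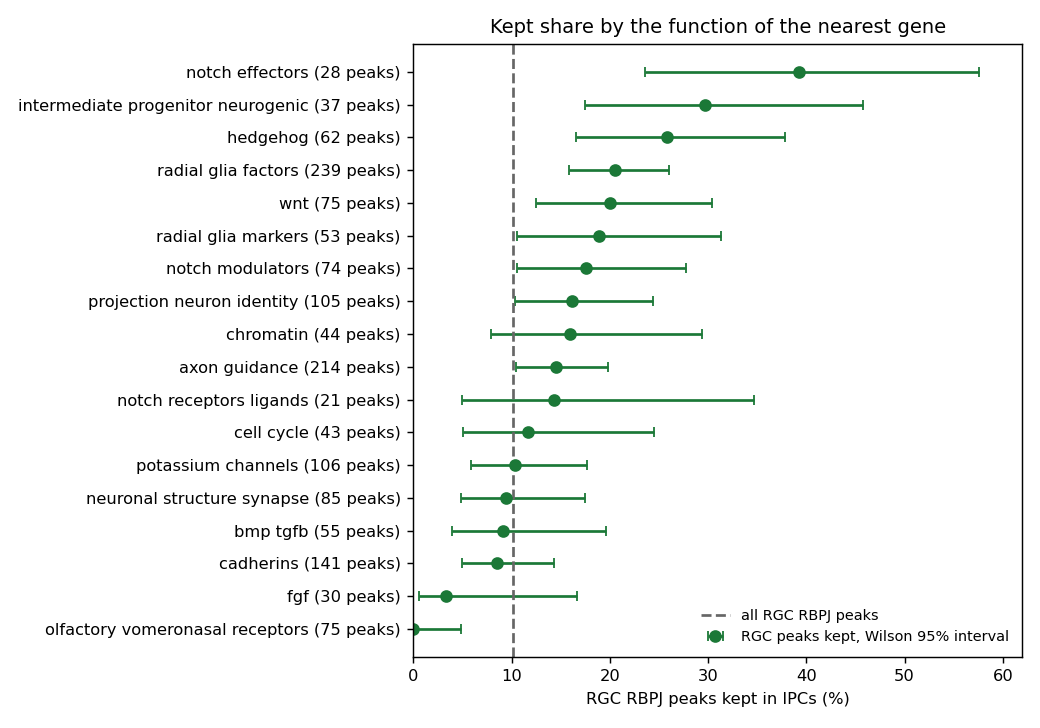
Share of RGC RBPJ peaks kept in IPCs (%) for each list of nearest genes, with the number of RGC peaks in brackets and Wilson 95% intervals, and the share over all RGC peaks as a dashed line at 10.1%. Notch effectors, the Hes and Hey genes and their companions such as Nrarp and Nepro, sit at 39.3%. Olfactory and vomeronasal receptors sit at 0%, and intervals of small lists are wide.

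Zfp608, a zinc finger gene, kept the most peaks, 10 of 33, and Casz1, Epha4, Gli3, Nfib and Pou3f3 kept 6 each. Casz1, a zinc finger factor of progenitor fate, kept 6 of 8, while Epha4, an ephrin receptor, kept 6 of 32 and lost the peak of 4415 bp on its start site. Auts2, a neurodevelopmental gene, lost the most, 34 of 37, and was followed by Epha4 with 26 lost, Zfp608 with 23, and Sox6 and Tmem182 with 21 each. The RGC peaks of Tmem182 lay a median of 463.6 kb from its start. The most gained peaks were near Nav2, a cytoskeletal regulator of neurite growth, with 9, none of which met any of its 10 RGC peaks and 5 of which held no GATC. Adgrl2, Auts2 and Nfib had 8 gained peaks each, and Cdh4 had 7, as did a few other genes.

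Genes with many RGC peaks and no IPC peak were led by A230072I06Rik and the phosphodiesterase gene Pde4b with 11 each, Insc, an organiser of the mitotic spindle, with 10, and Cadps2, Cdc73 and Fzd8 with 9 each, a number that a few other genes shared. Pde4b had peaks of 5992 and 1593 bp on 2 start sites. The opposite kind had few peaks per gene, at most 5. Asmt and Ldhal6b had 5 each, Dusp4 and Gm10717 4 each and Abcb9 3, the last a number that several other genes shared. Of the peaks assigned to Ldhal6b, 4 lay 90.41 to 180.1 kb from it in introns of Arid1b, a chromatin remodelling gene with 8 RGC peaks of its own. Those of Asmt and Gm10717 held no TTCCCA word, and 7 of these 9 peaks held no GATC. Dusp4, a phosphatase of MAP kinases, had a gained peak of 4423 bp on its start site with 10 GATC sites. The widest gained peak of all, 6929 bp near Gpr50 on chromosome X from 71732628 to 71739556, held 6 TTCCCA words and no GATC. The widest kept IPC peak, of 6359 bp in an intron of Cadps, lay within an RGC peak of 7567 bp.

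Tuba1a, whose promoter drives the IPC plasmids (ENSMUSG00000072235, chromosome 15 from 98949837 to 98953703), was covered at its start site in both lists, by 3890 bp in RGCs and 1530 bp in IPCs. The plasmid fragment and the locus cannot be told apart in the IPC peak.

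Notch calls of the other cell type were read on the same sites. The lost class was set by the IPC RBPJ list and the gained class by the RGC RBPJ list. Each was called against the same Dam-only group as the Notch list read on it. These shares are therefore tied to how the classes were made, and they are descriptions only. An IPC Notch peak lay on 770 of the 12669 lost RGC peaks, 6.08% (5.67 to 6.51), against 8.01% of all RGC RBPJ peaks. An RGC Notch peak lay on 108 of the 4036 gained peaks, 2.68% (2.22 to 3.22), against 8.004% of all IPC RBPJ peaks. Overlap between the RBPJ and Notch lists of 1 cell type is not given, for the same reason of a shared Dam-only group. The authors also grouped all sites into 8 clusters by binding intensity, which used these samples. Kept RGC peaks fell mostly into cluster 7, with 46.2%, followed by cluster 2 with 17.1%. Lost peaks were spread over cluster 5 (34.5%), cluster 8 (23.5%), cluster 4 (12.4%), cluster 6 (10.2%), cluster 7 (8.14%), cluster 1 (6.58%) and cluster 2 (4.26%). Gained peaks lay mostly in cluster 3 (79.5%) and cluster 7 (13.9%), with 2.28% in cluster 6 and 1.91% in cluster 2. The paper describes clusters 2, 6 and 7 as bound by Notch and RBPJ in both cell types. It describes clusters 5 and 8 as RBPJ alone in RGCs and cluster 3 as RBPJ alone in IPCs. Some lost and gained peaks are thus sites that the paper groups as bound in both cell types.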

How the data were processed

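Dam-RBPJ samples of RGCs (3) and IPCs (3) and Dam-only controls were processed by the authors, who trimmed the reads, mapped them to mm10, binned them by GATC fragments, called broad peaks with Macs2 for every fusion and Dam-only pair, applied an FDR filter and retained those found in every pair. The deposited values are peak positions in bp, pooled over samples, with 0 columns of single samples. Depth is unknown and no replicate error or p-value could be computed. Mitochondrial peaks were not compared. Overlap was counted from 1 bp. Genes were assigned by the nearest transcription start site of a protein-coding gene (GENCODE for this build), and a peak with a start site inside it was on a start site. Words were counted on both strands of the GRCm38 sequence. Intervals at 95% are Wilson for shares and Poisson for densities, over peaks or words, which are not independent replicates. Python 3.11.15, numpy, pandas, scipy and matplotlib were used. Overlaps, start sites and word counts were tested on simulated data. The 18 gene lists, the comparison and its thresholds were chosen with earlier results of these data known. Genes named are all Hes, Hey, receptor and ligand genes with a peak, in each other list up to 4 genes with the most peaks and up to 6 with a kept peak on a start site, the 5 genes with the most kept, lost and gained peaks and the 5 with the most peaks in 1 list alone, the widest sites, and genes on plasmids. Not every one is described. The cell type markers were added. Alternatives are given in the closing section.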

Additional observations from a re-analysis of the deposited data

Results flagged for a closer look

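The mitochondrial genome, which was left out of all comparisons, was called in both RBPJ lists. Peaks covered 56.2% of it in the RGC list (3 peaks) and 70.4% in the IPC list (5 peaks), a signal outside the main measurement. The IPC Notch list covered 74.1% and the RGC Notch list 0%. Levels in Dam-only samples were not analysed here, and the cause was not tested.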

How the results depend on the processing

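Of 52 alternative values of 16 results, 17 stayed within the interval of the reported value and 35 fell outside it. Single shares and densities cannot change sign, but the order of the classes turned where stated. The kept share of RGC peaks was 9.63% when the overlap had to reach 50% of the shorter partner, 6.30% by midpoint, 10.8% within 1 kb, 8.39% for peaks of at least 1000 bp and 6.17% by bases. The gained share of IPC peaks was 74.7%, 75.3%, 72.1%, 74.9% and 75.6% in the same order, and 61.7% for peaks with a GATC site. The share on a start site, for kept, lost and gained peaks, was 33.5%, 19.8% and 15.1% with start sites of all annotated genes, 21.8%, 15.5% and 14.52% by midpoint within 1 kb, and 31.1%, 18.8% and 13.7% for peaks of at least 1000 bp. Kept peaks were highest in each. TTCCCA density was 1.38 per kb in kept and 1.22 in lost peaks over the central 500 bp, and 1.23 in gained peaks with GATC. The longer word gave 0.318, 0.277 and 0.278 per kb for kept, lost and gained peaks. Gained peaks ranked above lost ones with the longer word and among peaks with GATC. Without GATC were 0.100% of kept and 0.0183% of lost peaks of at least 1000 bp, with kept above lost peaks, and 7.79% and 8.43% of those under 1000 bp. Genes that kept an RGC peak were 12.9% with the nearest gene of any kind and 15.1% within 100 kb. Genes with IPC peaks alone were 46.1% and 36.2%, and 24.4% for peaks with GATC.

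The peak lists are pooled and give no depth, height or replicate, so replicates could not be left out and a missing call cannot be told from a weak one. The groups differ in promoter as well as cell type, and these cannot be told apart. No paired analysis was possible because the lists hold 1 pooled column per group and no result comes from a test.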
